A study of Saccharomyces cerevisiae with 28 samples.

Results

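The translation landscape of wild-type budding yeast (Saccharomyces cerevisiae) at 36 °C in synthetic complete (SC) medium was described from 4 cultures, harvested after 2 h and 8 h at that temperature with replicates 1 and 2 at each time. These are 4 of the 14 cultures of the series, each with 1 ribosome footprint library and 1 mRNA library. For every gene the footprint level was set against the mRNA level of the same culture, and genes were kept where the mean mRNA level over the 4 cultures reached 10 RPKM (reads per kilobase of gene, scaled to the mapped reads of the library). Of 6692 genes listed, 5396 were kept. Just inside that limit lay IPI1, CSE4 and DSN1, the last at 10.01 RPKM, and just outside it lay IOC4 at 9.99 RPKM. The question was which genes and functions stood steadily at the top and at the bottom in all 4 cultures, not how strains or times differ.

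A ribosome shields the stretch of mRNA it sits on from nuclease, so sequencing the shielded fragments counts ribosomes on each gene. Dividing by mRNA abundance gives the density of ribosomes per message, usually called translational efficiency (TE), which differs between genes mainly through how often translation starts. In yeast, short messages for abundant housekeeping proteins are known to be densely loaded, whereas messages such as GCN4, whose upstream reading frames hold ribosomes back, are known to be sparsely loaded.

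The series profiled cells depleted of the initiation scaffold eIF4G, in 2 media and at several times. The wild-type cultures used here are strain YWG1245 (YAJ3), grown in SC with 2% raffinose, given 2% galactose for 30 min and moved to 36 °C for 2 h or 8 h. The 4 SC cultures of strain 4Gts, YWG1246 (YAJ41), had the same medium, galactose step and temperature, and 3 wild-type cultures of YWG1245 (YAJ3) were grown in the medium YPA: 1 with 2% raffinose at 25 °C before the shift, 1 with 2% galactose for 30 min at 25 °C, and 1 with that step followed by 36 °C for 2 h. All cells received cycloheximide at 0.1 mg/ml, which holds ribosomes on the mRNA, at harvest. Genotypes beyond the strain names are not given in the labels, and the labels do not say whether replicates came from separate colonies. The p-values and standard errors therefore refer only to the spread between these cultures within a time, pooled in part over genes. A difference between 2 h and 8 h does not enter them.

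Depth, read from the spacing of the lowest values, was 5.34 to 11.1 M reads in the footprint libraries and 11.6 to 18.1 M reads in the mRNA libraries, which leaves a counting error of 7.44% to 13.7% for a 1-kb gene at 10 RPKM. TIF4632, which encodes eIF4G2, had 20.1 to 29.3 RPKM of mRNA in the wild-type cultures and 0.211 to 0.505 RPKM in the 4Gts cultures. The galactose genes GAL1, GAL10, GAL7 and GAL2 were present at 1161 to 4677 RPKM in wild type. Cultures of the same replicate number were closer to each other (Pearson r of log2 TE across the 5396 genes, 0.985 for replicate 1 and 0.987 for replicate 2) than cultures of the same time (0.969 at 2 h and 0.964 at 8 h). The 5 MATa-specific genes examined (MFA1, MFA2, STE2, STE6, BAR1) summed to 1174 and 1229 RPKM of mRNA in the replicate 2 cultures and 4754 and 5185 RPKM in the replicate 1 cultures, and all 5 were lower in replicate 2 at both times. The 4 MATalpha-specific genes (MF(ALPHA)1, MF(ALPHA)2, STE3, SAG1) ran the other way, at 144 and 161 RPKM in replicate 2 against 64.9 and 70.3 RPKM in replicate 1. The part of this difference between replicates in the values below was not tested, so key genes are given in each culture.

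TE is given throughout as log2((footprint RPKM + 1) / (mRNA RPKM + 1)) minus the value of the median gene of that culture, so that 0 is the typical gene and each unit is a doubling. Values given as x ± y are the fitted value over the 4 cultures and its standard error (SE). Genes spread widely on this scale: 90% of them lay between -2.94 and 1.99, a 30.5-fold span, while mRNA levels spanned 40.2-fold and footprint levels 143-fold between the same percentiles. The order was steady. The median gene had a standard deviation of 0.17 over the 4 cultures, and 95.5% of genes had one below 0.5. With limma's treat test against a 1.5-fold distance from the median gene, 1399 genes (25.9%) were called high and 1505 (27.9%) low at an adjusted p of 0.05. Across the 5396 genes tested, TE had little rank correlation with mRNA abundance (Spearman rho -0.07 to -0.02 in the 4 cultures). This is a description, since mRNA is also the divisor. By class of mRNA level TE was uneven. The 344 genes at 300 to 1000 RPKM had a median of 0.60 (40.1% high, 17.4% low). The 148 genes at 1000 RPKM or more had one of -0.98 (15.5% high, 50% low), with 58 unnamed features among them, described below.

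**Figure D1:**
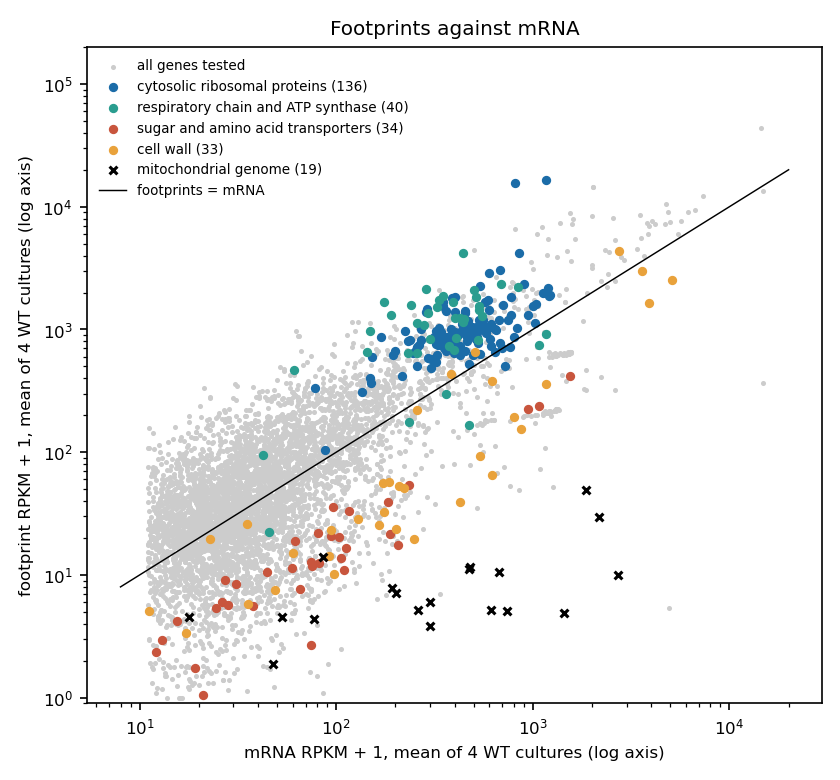
Mean footprint level against mean mRNA level (RPKM + 1, log axes) for the 5396 genes in the 4 wild-type cultures; each point is 1 gene and the line marks equal levels. The 136 cytosolic ribosomal protein genes lie mostly above the line, whereas the 34 sugar and amino acid transporters and the 19 genes of the mitochondrial genome all lie below it.

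A total of 180 genes (3.34%) were in the highest 5% in every culture and 199 (3.69%) in the lowest 5% in every culture. The edge of the highest 5% was at 1.92 to 2.05 and that of the lowest 5% at -3.16 to -2.89 in the 4 cultures. The steadily high genes had a median TE of 2.57, and their median mRNA level was 28.8 RPKM with 215 RPKM of footprints. The steadily low genes had a median TE of -3.78, with 59.7 RPKM of mRNA and 3.93 RPKM of footprints. The median mRNA level of the steadily low genes was above the 39.6 RPKM of all genes, and that of the steadily high genes was below it. Because mRNA is the divisor of TE, the choice of genes by TE can itself produce such a contrast. With 1 RPKM added, the mRNA level also limits how low a gene with few footprints can score. The part of these in the contrast was not tested.

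The 12 highest named genes are short, between 78 and 723 nt, and most encode small subunits of large assemblies. RPL41A and RPL41B encode the same short protein of the large ribosomal subunit, PAI3 an inhibitor of the vacuolar protease Pep4, CHZ1 a chaperone for histone H2A.Z, ANB1 the hypoxic form of eIF5A, SEM1 a proteasome lid subunit and TMA7 a protein found with ribosomes. MIC19 belongs to the mitochondrial cristae complex, HTL1 to the RSC chromatin remodeller, SNF7 to the ESCRT-III complex, HSK3 to the DASH complex of the kinetochore and YKE2 to prefoldin. Values in single cultures are given from here on in the order 2 h replicate 1, 2 h replicate 2, 8 h replicate 1 and 8 h replicate 2.

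RPL41A (78 nt, chromosome IV, 130407 to 130484 in RefSeq assembly R64) had 22323, 11800, 18412 and 10126 RPKM of footprints, with mRNA at 1014, 515, 910 and 803 RPKM. Its log2 TE was 4.26, 4.34, 4.16 and 3.52, for a fitted value of 4.07 ± 0.12 (SE, n = 4 cultures), 16.8-fold above the median gene (adjusted p = 7.81e-06). RPL41B reached 3.64 ± 0.13 (SE). The pair differ little in sequence, so reads can be split between them and their separate values are uncertain. PAI3 had 415, 1516, 477 and 1483 RPKM of footprints on 18.0, 91.0, 22.2 and 113 RPKM of mRNA. Its mRNA was thus about 5 times higher in the replicate 2 cultures, while its log2 TE stayed between 3.56 and 4.25 in all 4. ANB1 was the least even of the 12, with a log2 TE of 4.60 and 4.16 in the replicate 1 cultures and 3.12 and 3.12 in the replicate 2 cultures; reads of its near-identical aerobic counterpart HYP2 (log2 TE of 1.06 ± 0.09) could also fall on it. SEM1 was at 3.61 ± 0.14, TMA7 at 3.60 ± 0.09, MIC19 at 3.45 ± 0.09 and SNF7 at 3.42 ± 0.08.

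**Figure D2:**
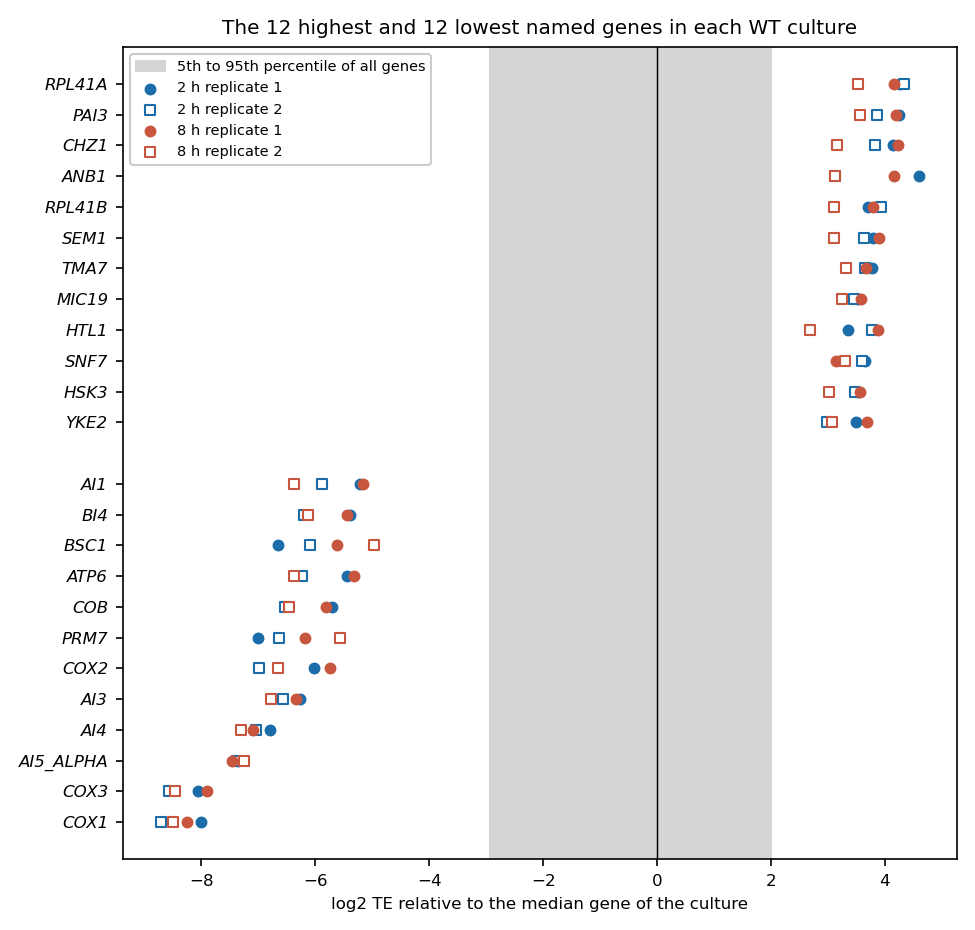
Log2 TE relative to the median gene for the 12 highest and the 12 lowest named genes; each point is 1 of the 4 wild-type cultures and the grey band is the range from the 5th to the 95th percentile of all genes. Every point of the 12 highest genes lies above the band and every point of the 12 lowest genes lies below it. Of the 12 lowest, all but PRM7 and BSC1 belong to the mitochondrial genome.

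Ribosomal protein, initiation factor and ribosome biogenesis genes lay above the typical gene, and the rest of the translation machinery was nearer to it. Of 136 cytosolic ribosomal protein genes, 83 were called high and none low, with a list median of 0.99 (culture medians 0.85 to 1.03), against a median of -0.01 and 25.9% called high over all genes. They held 14.6% of summed footprint RPKM and 8.42% of summed mRNA RPKM. These shares followed the replicate: 8.99% to 19.9% of footprints and 5.24% to 12% of mRNA. Of 77 mitochondrial ribosomal protein genes, 52 were called high and 1 low, with a median of 1.31; RSM27 (3.27 ± 0.09) and MRPS17 (3.06 ± 0.08), both of the small mitochondrial subunit, led them. The single low member was VAR1, the only one encoded in the mitochondria. Of 30 translation initiation factors, 13 were called high and none low (median 0.54), led by TIF11, encoding eIF1A, at 2.86, 2.76, 3.06 and 2.77, and by TIF35, encoding a subunit of eIF3, at 1.93 ± 0.08. The cap-binding protein gene CDC33 was also high, at 0.97 ± 0.08 (adjusted p = 0.005), but it was not called on the deposited ratios (0.68, adjusted p = 0.25), with at least 10 RPKM of footprints also required (0.75, adjusted p = 0.085) or with the trend on gene length removed (0.33). The other members of the cap complex were not called: TIF4631, encoding eIF4G1, was at -0.06 ± 0.08, the poly(A)-binding protein gene PAB1 at 0.21 ± 0.11, and TIF4632 at 0.82 ± 0.17 (adjusted p = 0.19). TIF4632 had 1.09 and 1.25 in the replicate 1 cultures and 0.54 and 0.41 in the replicate 2 cultures, and without the 8 h replicate 2 culture it was called, at 1.03 (adjusted p = 0.015). Of 16 translation elongation and termination factors, 5 were called high and 1 low (median 0.27), and 8 lay above the median gene. The low member was YEF3, encoding elongation factor 3, at -1.0 ± 0.17 (adjusted p = 0.048). Of 23 aminoacyl-tRNA synthetases, 6 were called high (26.1%, against 25.9% of all genes) and none low (median 0.26). Of 118 ribosome biogenesis genes, 54 were called high and 9 low (median 0.72), with FCF2 (2.71 ± 0.17) and NOP15 (2.68 ± 0.12) at the top and the RNA helicase gene DBP2 (-2.19 ± 0.10) at the bottom.

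Nuclear genes for mitochondrial energy production stood higher still. Of 40 nuclear genes for the respiratory chain and ATP synthase, 32 were called high and 2 low, with a median of 1.35 (culture medians 1.18 to 1.5), and 9 were steadily in the highest 5%. STF2 and STF1, small proteins that stabilise or inhibit the ATP synthase, were highest. STF2 had 4356, 4194, 4065 and 4288 RPKM of footprints on 440, 408, 389 and 534 RPKM of mRNA, a log2 TE of 3.09 ± 0.09 (SE, n = 4 cultures, adjusted p = 7.83e-06) with 4 values that lay close together. The list held 4.05% of footprint RPKM and 1.99% of mRNA RPKM. NDE1, the external NADH dehydrogenase, was a low member at -1.71 ± 0.11. Of 30 genes for protein import into mitochondria, 14 were called high and 3 low; PAM16 (2.80 ± 0.09) and TIM10 (2.56 ± 0.09) were at the top and the membrane receptor gene TOM71 (-1.59 ± 0.08) at the bottom. The citric acid cycle list, in the same compartment, had a median of -0.11 with 4 of 23 called high and 4 low (17.4% each). Over all genes, 25.9% were called high and 27.9% low.

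Protein folding, degradation and redox control also ranked high. Of 35 proteasome genes, 26 were called high and none low (median 1.07), against 25.9% high and 27.9% low over all genes. Of 49 chaperone and heat shock genes, 28 were called high and 3 low (median 0.85), and this list held 9.44% of footprint RPKM and 5.61% of mRNA RPKM. SBA1, a cochaperone of Hsp90, was at 3.11 ± 0.09, HSP12 at 2.36 ± 0.08 and the disaggregase gene HSP104 at 1.51 ± 0.10. HSP26, a small heat shock protein, was among the most abundant messages. Its mRNA was at 5020 and 7416 RPKM in the replicate 1 cultures and 20456 and 25081 RPKM in the replicate 2 cultures, while its log2 TE was 1.63, 1.41, 1.63 and 1.36. The low members KAR2 and LHS1 encode Hsp70 chaperones of the endoplasmic reticulum (ER) and are described below. Of 33 small ubiquitin-like and redox genes, 23 were called high and none low (median 1.03); the highest were CUP1-1 and CUP1-2, identical copies of the copper metallothionein gene with the same listed values (2.65 ± 0.09). Of 10 histone genes, 9 were called high (median 1.22), led by the histone H4 genes HHF1 (1.79 ± 0.09) and HHF2 (1.61 ± 0.09).

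SNAREs, the proteins that drive vesicle fusion, had the highest median of the 35 lists examined, 1.55 (culture medians 1.51 to 1.69). The lists were chosen with earlier results of these data known, so the rank among them is a description. Of 23 SNAREs, 20 were called high (87.0%, against 25.9% of all genes) and none low. TLG1, a SNARE of the Golgi and endosomes, had 123, 135, 123 and 130 RPKM of footprints on 11.8, 12.2, 14.3 and 16.5 RPKM of mRNA, a log2 TE of 2.97 ± 0.08 (adjusted p = 7.81e-06). PEP12, its counterpart at the late endosome, was at 2.57 ± 0.11. The 3 members that were not called, chosen here after their values were seen, were SEC22 at 0.63, SYN8 at -0.52 and SEC20 at -0.76.

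Sugar metabolism was close to the typical gene. Of 23 genes of glycolysis and ethanol formation, 3 were called high and none low (median 0.34), although the list held 8.77% of footprint RPKM and 9.73% of mRNA RPKM. TDH3, glyceraldehyde-3-phosphate dehydrogenase, had 15375, 11829, 15050 and 11771 RPKM of footprints on 16744, 12600, 17399 and 12819 RPKM of mRNA, a log2 TE of -0.31 ± 0.08 that was not called. Among the galactose genes, GAL1, which encodes galactokinase, was at 2.28, 2.14, 1.94 and 2.14, fitted at 2.13 ± 0.08 (SE, adjusted p = 2.06e-05), whereas the galactose permease gene GAL2 was at -1.89, -2.07, -2.21 and -2.11, fitted at -2.07 ± 0.08 (SE, adjusted p = 2.09e-05). Both genes are induced by galactose and their messages were abundant, at 1420 to 1927 RPKM for GAL1 and 1161 to 2036 RPKM for GAL2, yet their footprints did not overlap: 6882 to 9614 RPKM for GAL1 and 281 to 548 RPKM for GAL2. UBR1, the gene for the ubiquitin ligase of the N-degron pathway, was at 523 to 1331 RPKM of mRNA in these wild-type cultures, with a log2 TE of -0.78 ± 0.13 (adjusted p = 0.15). It was called low without the 8 h replicate 1 culture, at -0.93 (adjusted p = 0.03).

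Transporters and ion pumps of the plasma membrane had the lowest medians of the 35 lists, which were chosen with earlier results known. All 34 sugar and amino acid transporters tested were called low, against 27.9% of all genes, with a median of -2.50 (culture medians -2.73 to -2.42). The range ran from HXT2, a glucose transporter, at -4.72 ± 0.29 to the glutamine permease gene GNP1 at -1.61. The list held 0.108% of footprint RPKM on 0.762% of mRNA RPKM. HXT2 had 2.90, 1.36, 1.67 and 0.756 RPKM of footprints on 127, 36.7, 107 and 24.1 RPKM of mRNA. Its log2 TE was -5.24, -4.17, -5.51 and -3.97, lower in both replicate 1 cultures than in both replicate 2 cultures. Its footprints were close to the 1 RPKM added, and the part of that constant in this difference was not tested. The fitted value of HXT2 ran from -5.38 to -3.45 over the alternatives in which it was tested.

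Ion transport was equally low, with a few exceptions. Of 21 plasma membrane ATPases and ion transporters, 17 were called low (81.0%, against 27.9% of all genes) and 2 high (median -2.52). PMA1, the proton pump that powers nutrient uptake, had 480, 177, 412 and 206 RPKM of footprints on 2346, 1160, 2510 and 1430 RPKM of mRNA, a log2 TE of -2.77 ± 0.10 (adjusted p = 1.17e-05). TRK2, a potassium transporter, and FET3, the multicopper oxidase of iron uptake, were lowest, at -4.97 ± 0.18 and -4.09 ± 0.12. TRK2 had 0.180, 0.990, 0.170 and 1.58 RPKM of footprints, so its value rests largely on the 1 RPKM added. It ran from -6.36 to -3.27 over the alternatives in which it was tested. The 2 high members, PMP3 (1.46 ± 0.10) and PMP2 (1.37 ± 0.22), are very small membrane proteins of 168 and 132 nt; with the trend of TE on gene length removed, their values were -0.33 and -0.63, and neither was called.

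Cell wall genes followed. Of 33, 26 were called low (78.8%, against 27.9% of all genes) and none high, with a median of -2.20 (culture medians -2.33 to -1.91). The list held 1.22% of footprint RPKM on 3.03% of mRNA RPKM. CTS1, the chitinase that separates mother and daughter cells, was at -4.03 ± 0.13 and the glucanase-like gene SCW10 at -3.63 ± 0.11. CTS1 mRNA stood at 416 and 394 RPKM in the replicate 1 cultures and 85.3 and 96.5 RPKM in the replicate 2 cultures, and its log2 TE was -3.70, -4.31, -3.84 and -4.25. CCW12, an abundant mannoprotein, had 6725, 3170, 7857 and 2614 RPKM of mRNA and a log2 TE of -1.24 ± 0.10 (adjusted p = 0.00099, and 0.088 with all 8 SC cultures in the fit). The 7 members that were not called, which include the abundant wall proteins HSP150 (-0.44) and CWP2 (0.49), were picked out after their values were seen.

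Genes of the ER and its lipid pathways were mixed. The list for protein secretion and glycosylation had 14 of 57 called high (24.6%) and 19 low (33.3%), near the 25.9% and 27.9% of all genes, with a median of -0.18. Ergosterol and fatty acid synthesis had 3 of 35 called high and 17 low (48.6%), with a median of -0.96. STT3 (-3.94 ± 0.08) and OST1 (-3.28 ± 0.10) encode subunits of the oligosaccharyltransferase, and HMG1 (-3.79 ± 0.08) and HMG2 (-3.60 ± 0.08) the HMG-CoA reductases of sterol synthesis, which are multispanning ER membrane proteins. KAR2, the Hsp70 of the ER lumen, had 422, 224, 419 and 212 RPKM of footprints on 2889, 1969, 3352 and 2216 RPKM of mRNA, a log2 TE of -3.24 ± 0.10 (adjusted p = 9.15e-06). Its 4 values ran between -3.51 and -2.97, all within the lowest 5% of their cultures. LHS1, its ER partner, was at -2.53 ± 0.09. At the other end of the secretion list stood SRP21 (2.59 ± 0.11) and SRP14 (2.12 ± 0.08), cytosolic subunits of the signal recognition particle, which brings secretory messages to the ER.

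After these values were seen, 4 lists that mix membrane and soluble proteins were split by where the protein resides. Among secretion genes, 16 of the 36 members in the ER membrane or lumen were called low and 6 high (median -0.69), and 3 of the 21 cytosolic or peripheral members were called low and 8 high (median 0.62). The 3 membrane proteins of the nuclear pore, POM152, NDC1 and POM34, were all low (median -2.82), whereas 3 of the 27 other pore proteins were low and 3 high (median 0.04). Of 8 autophagy genes for membrane proteins, 5 were low and none high (median -1.19), led by the lipase gene ATG15 (-3.91 ± 0.08). Of the 26 other autophagy genes, 2 were low and 13 high (median 0.75), led by the scaffold gene ATG17 (2.80 ± 0.20) and the ubiquitin-like ATG8 (2.46 ± 0.10). In the vacuolar ATPase, 3 of 9 membrane subunits and assembly factors were low and 2 high (median -0.03), and none of 9 cytosolic or peripheral subunits was low and 4 high (median 0.32), with VMA10 (2.79 ± 0.13) at the top and VPH1 (-1.98 ± 0.08) at the bottom of the complex. Over all genes, 27.9% were called low and 25.9% high, and the membrane class of the vacuolar ATPase was near these shares. SNAREs, most of which are membrane-anchored by their last segment, did not follow the division of membrane and soluble proteins. Because these classes were drawn up with the values known, no test was applied. The split was made in the SC wild-type cultures only. In the YPA wild-type culture after 2 h at 36 °C, the whole secretion list had a median of 0.28.

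**Figure D3:**
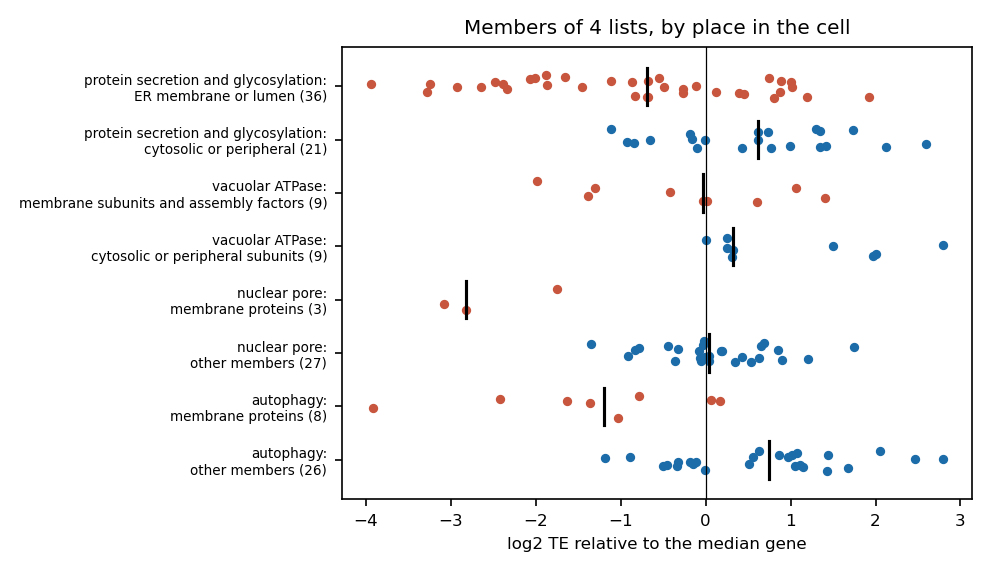
Log2 TE relative to the median gene for members of 4 gene lists, split by where the protein resides; each point is 1 gene (fitted over the 4 wild-type cultures), the black bar is the class median, and the vertical scatter within a row carries no value. The 3 membrane proteins of the nuclear pore lie between -3.08 and -1.75, and the membrane or lumenal members of the secretion list reach down to -3.94.

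The mitochondrial genome formed the extreme bottom. All 19 of its genes tested were called low, with a median of -5.66 and a range from -8.37 (COX1) to -2.19 (VAR1), and 17 were steadily in the lowest 5%. COX1 and COX3, core subunits of cytochrome oxidase, were abundant as RNA. COX1 had 1222, 1466, 1459 and 1627 RPKM of mRNA and 4.47, 2.96, 4.39 and 3.91 RPKM of footprints, a log2 TE of -8.37 ± 0.14, 331-fold below the median gene (adjusted p = 7.02e-06). COX3 was at -8.25 ± 0.14, COX2 at -6.35 ± 0.21 and COB, the cytochrome b gene, at -6.13 ± 0.18. These genes are translated by mitochondrial ribosomes, which cycloheximide does not hold, and the annotated introns of COX1 overlap the intron-encoded frames AI1 to AI5, so their RNA values are not independent. Left out of the fit, they changed no call among the other named genes, and 1390 genes were called high and 1493 low.

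Among nuclear genes, PRM7, BSC1 and GCN4 were the lowest with a name. PRM7, known as pheromone-regulated, had 126, 103, 65.9 and 42.2 RPKM of mRNA and 0.138, 0.181, 0.0435 and 0 RPKM of footprints, for a log2 TE of -6.34 ± 0.13 (adjusted p = 7.02e-06). BSC1, named for stop codon readthrough, had 112, 93.8, 63.0 and 47.4 RPKM of mRNA and 0.297, 0.583, 0.468 and 0.698 RPKM of footprints, for -5.83 ± 0.15. The 2 lie next to each other on chromosome IV (381985 to 384081 and 384601 to 385587 in R64), and the mRNA of both was highest in the 2 h replicate 1 culture and lowest in the 8 h replicate 2 culture. With footprints this low the value is set by the 1 RPKM added before the ratio: PRM7 was at -8.96 with 0.1 RPKM added and -4.18 with 5 RPKM added, and low in both.

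GCN4, which switches on amino acid synthesis, had 1254, 1361, 1118 and 1333 RPKM of mRNA, above the median of 449 RPKM for cytosolic ribosomal protein genes, with 111, 26.9, 46.2 and 20.3 RPKM of footprints. Its log2 TE was -3.69, -5.79, -4.74 and -6.10, fitted at -5.08 ± 0.39 (SE, n = 4 cultures, adjusted p = 0.000133), 33.8-fold below the median gene. All 4 cultures were in the lowest 5%, and the replicate 2 cultures were lower than the replicate 1 cultures at both times. Of 25 genes listed for regulatory upstream frames, 10 were called low (40%, against 27.9% of all genes) and none high, with a median of -0.35, and 7 lay above the median gene. CPA1, in arginine synthesis, was at -1.23 ± 0.13, the cyclin genes CLN3 and PCL5 (the second from the cell cycle list) at -2.63 ± 0.14 and -2.37 ± 0.12, and the stress sensor WSC3 at -4.35 ± 0.11. YAP1 was at 0.67 ± 0.08 and not called. HAC1, whose intron blocks translation until it is removed in the unfolded protein response, differed between replicate numbers. It had -0.16 and -0.36 in the replicate 1 cultures and -1.75 and -1.54 in the replicate 2 cultures, fitted at -0.95 ± 0.31 (adjusted p = 0.24). Without the 2 h replicate 1 culture it was called low, at -1.35 (adjusted p = 0.0089), and without the 8 h replicate 1 culture likewise, at -1.25 (adjusted p = 0.034).

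The other nuclear genes among the 12 lowest serve varied roles. MSB2 (-4.85 ± 0.11) encodes a mucin-like sensor at the cell surface, DAN4 (-4.77 ± 0.12) a cell wall mannoprotein of anaerobic cells, NDJ1 (-4.55 ± 0.09) a telomere protein of meiosis, UTH1 (-4.52 ± 0.44) a wall and mitochondrial protein and ARN2 (-4.41 ± 0.18) a siderophore transporter. MSB2 had 196, 121, 214 and 106 RPKM of mRNA and 9.06, 3.31, 6.2 and 3.07 RPKM of footprints. UTH1 was the least even of these, with -3.52 and -3.48 in the replicate 1 cultures and -5.67 and -5.40 in the replicate 2 cultures. LIH1 (-4.41 ± 0.25) and HOB2 (-4.76 ± 0.15) complete the set with HXT2 and TRK2. The standard errors do not cover the choice of processing. Over the alternatives, DAN4 ran from -6.97 to -2.79, HOB2 from -5.97 to -3.14 and LIH1 from -5.72 to -2.75.

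Genes of regulation and of the genome were spread on both sides. The shares over all genes were 25.9% high and 27.9% low. Of 103 transcription factor genes, 14 were called high and 23 low (median -0.01), with INO4 (3.14 ± 0.08), an activator of phospholipid synthesis, and RGT1 (-2.61 ± 0.16), the repressor of glucose transporter genes, among the extremes. Of 76 protein kinase genes, 8 were high and 12 low (median -0.09), and the ER stress kinase gene IRE1 was lowest at -3.19 ± 0.13. Of 40 cell cycle regulators, 8 were high (20%) and 10 low (25%), near the shares of all genes (median -0.06). Of 54 genes for DNA replication and repair, 13 were high (24.1%, also near that share) and 4 low (7.41%, median 0.32). The checkpoint kinase genes TEL1 and MEC1, 8364 and 7107 nt long, were at -2.54 ± 0.11 and -1.80 ± 0.07, and RAD14, which recognises DNA damage, at 1.66 ± 0.09. RNA polymerase genes ran higher, with 16 of 30 called high and 2 low (median 1.01), from RPB10 (2.76 ± 0.08), a small shared subunit, to RPO31 (-1.26 ± 0.09), the largest subunit of polymerase III.

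Of 79 amino acid synthesis genes, 6 were called high (7.59%) and 25 low (31.6%), against 25.9% and 27.9% of all genes (median -0.24). SAM1, an S-adenosylmethionine synthetase, was at -2.63 ± 0.11, and SER3, which begins serine synthesis and overlaps the noncoding gene SRG1, was at -2.59 ± 0.18. PRO2, of proline synthesis, was at 1.25 ± 0.08. Of 32 purine and pyrimidine genes, 6 were high and 1 low (median 0.09). The mating list, which holds secreted and surface proteins beside soluble ones, had 4 of 23 high and 12 low (median -1.0), from the G protein subunit gene STE18 (3.17 ± 0.09) to PRM7. Most meiosis and sporulation genes were not measurable, since 22 of 69 reached the mRNA minimum; of those, 5 were high and 8 low (median 0.09), with the prospore membrane gene ADY3 at -3.85 ± 0.08 and the mitotic exit gene SPO12 at 2.47 ± 0.08.

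**Figure D4:**
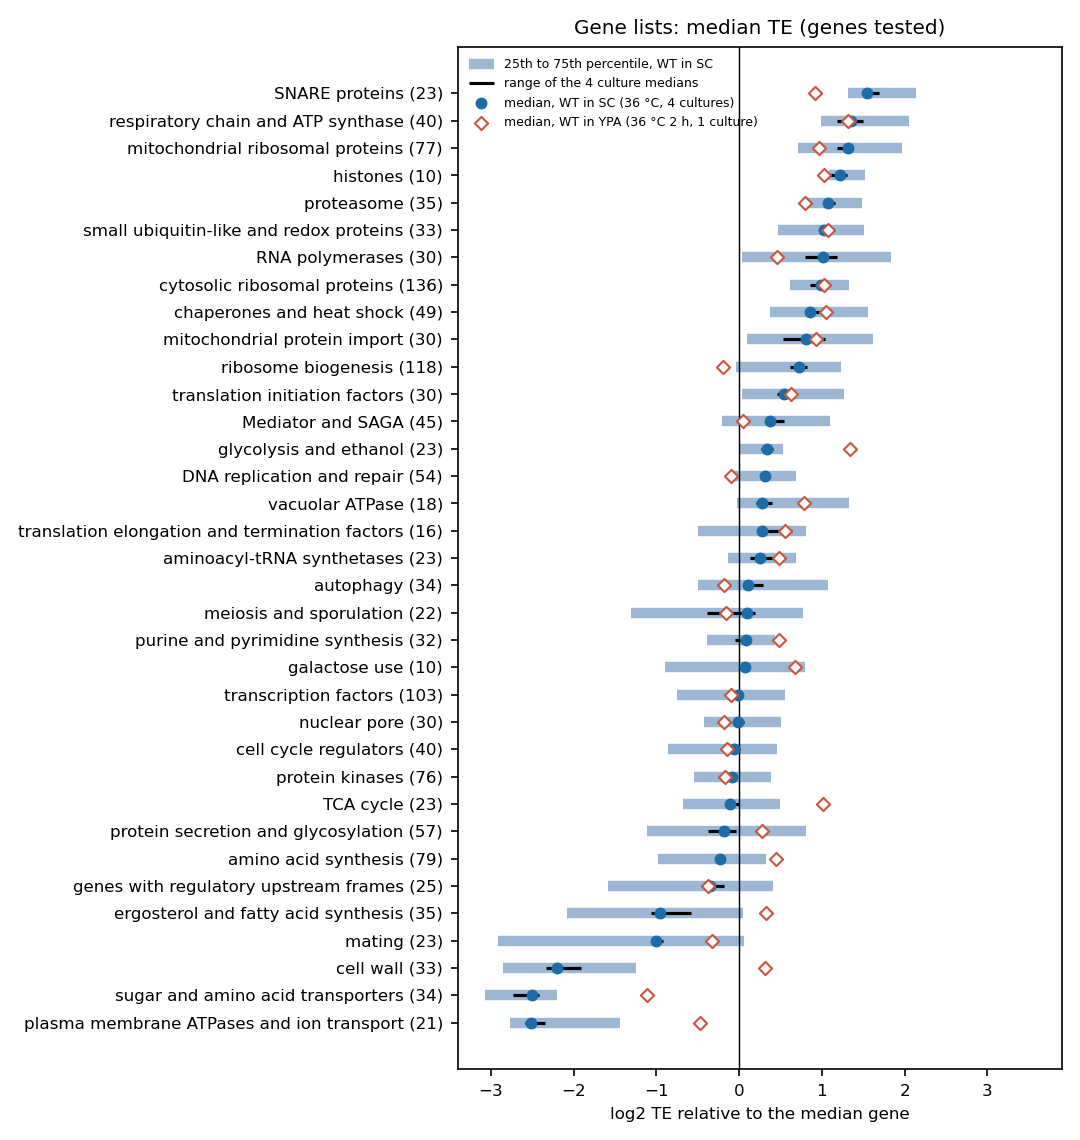
Median log2 TE of 35 gene lists relative to the median gene, with the number of genes tested in brackets; filled circles and bars are the 4 wild-type cultures in SC (median, 25th to 75th percentile of members, and range of the 4 culture medians), and open diamonds are the single wild-type culture in YPA after 2 h at 36 °C. SNAREs are at the top at 1.55, and transporters and ion pumps at the bottom at -2.50 and -2.52; cell wall genes are at -2.20 in SC and 0.32 in YPA.

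Gene length went with TE. Length here is the span of the gene in RefSeq. Genes under 300 nt had a median TE of 1.45 (172 genes, 64.5% called high), those of 1000 to 1500 nt one of -0.02 (1234 genes, 21.3% high), and those of 2500 nt or more one of -0.74 (773 genes, 2.33% high and 45.8% low). Each step between the 6 length classes was downward in the fitted values. Across genes, Spearman's rho between TE and length was -0.43 to -0.49 in the 4 cultures (5283 genes, which share the libraries), and TE fell by 0.57 to 0.62 per doubling of length. Of the steadily high genes, 65.0% were under 600 nt, against 15.8% of all genes, and their median length was 471 nt against 1254 nt. The steadily low genes had a median of 1746 nt. RPKM divides by length, so reads lost or gained near the ends of a gene weigh more in a short one, and the part of this in the trend was not tested.

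**Figure D5:**
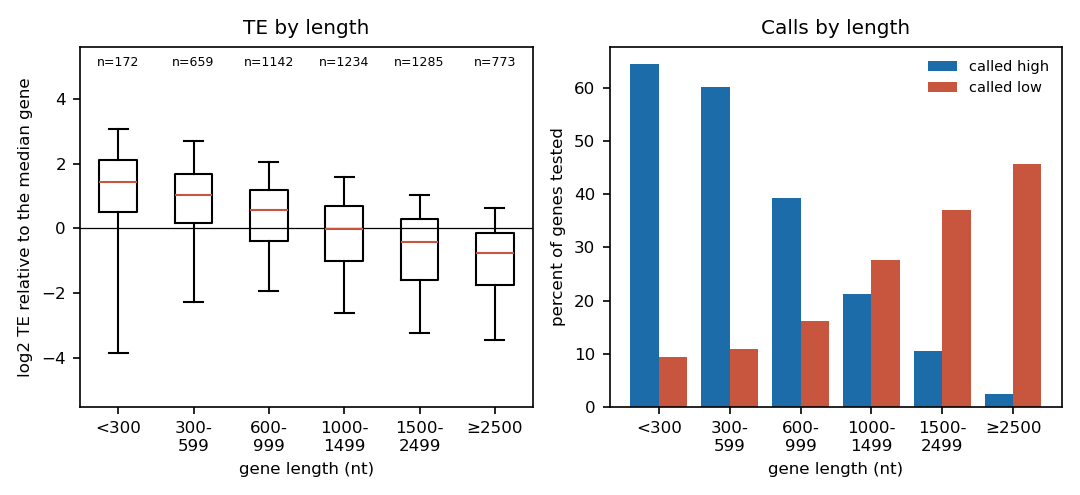
Log2 TE relative to the median gene by gene length (left: boxes are quartiles, whiskers the 5th to 95th percentile, n genes above) and percent of genes called high or low in each length class (right), fitted over the 4 wild-type cultures. The median falls from class to class, and 64.5% of genes under 300 nt are called high against 2.33% of those of 2500 nt or more.

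With the trend on length taken out of each culture, an alternative added after the data were seen, 998 genes were called high (18.9%) and 1426 low (27%). Of the genes called high before, 57.4% stayed high, and of those called low, 83.0% stayed low. Transporters were at -2.25 with 34 of 34 low, ion transport at -2.16 with 17 low, and cell wall genes at -2.06 with 26 low. The secretion list stood lower than before, at -0.65 with 26 called low, and so did the mating list, at -1.43 with 12. The high lists came closer to the typical gene: cytosolic ribosomal proteins were at 0.40 with 37 called high, mitochondrial ribosomal proteins at 0.59 with 31, respiratory chain genes at 0.46 with 11, and histones at 0.25 with none of 10. Small ubiquitin-like and redox genes were at 0.22, with 7 called high and 2 low. Mitochondrial import genes were at 0.15, with 6 called high and 5 low. SNAREs (1.04, 16 high), chaperones (0.92, 27 high), the proteasome (0.86, 21 high) and ribosome biogenesis (0.82, 53 high) moved less. RPL41A was at 1.62 and GCN4 at -5.48 on this scale. The histone gene HHF1 (0.53) and the long genes MEC1 (-0.37) and RPO31 (-0.25) were no longer called.

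Abundant, repeated and unnamed features had their own pattern. Of 148 genes with at least 1000 RPKM of mRNA, 74 were called low (50%, against 27.9% of all genes). Only 21 of those are among the 90 named genes of that class, which had a median of 0.42, whereas 53 of the 58 unnamed ones were low. Among the unnamed, 27 features of exactly 1323 nt (TE -1.45 to -1.01) and 19 of exactly 5269 nt (-2.78 to -2.52) were all low; features that share length and level can share reads, so these are not separate observations. Of 465 RefSeq genes without a gene name, 225 (48.4%) were low, and of 113 features with no RefSeq entry, 46 (40.7%). Among RefSeq genes with a name, 25.6% were low. The lowest value of all was that of YMR013W-A, with 2155 to 9641 RPKM of mRNA and 1.67 to 7.91 RPKM of footprints (-9.91 ± 0.25). Genes within 30 kb of the outermost gene of a chromosome made up 1.69% of the steadily high genes and 17.7% of the steadily low ones, against 5.39% of all genes. Genes that overlap another gene made up 2.26% and 12.2% of the 2 sets, against 3.98% of all. Of the 22 overlapping low genes, 9 are nuclear, which is 5.49% of the nuclear low set, and the others belong to the mitochondrial genome.

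Genes were also chosen by the replicate 1 cultures alone and read in the replicate 2 cultures. The 222 genes in the highest 5% of both replicate 1 cultures had a median of 2.52 there and 2.43 in replicate 2. The 243 genes in the lowest 5% of both replicate 1 cultures had medians of -3.67 and -3.58. In the 4Gts cultures, which had no part in either choice, the steadily high genes had a median of 2.90 and the steadily low ones -3.90. Only 27 genes had a standard deviation above 1 over the 4 wild-type cultures, GCN4, UTH1 and the mitochondrial ATP8 among them.

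In YPA, where each condition has 1 wild-type culture and no test is possible, TE spanned less: 90% of genes lay within 12.1-fold after 2 h at 36 °C, against 30.5-fold for the SC cultures. The 2 tables were normalized separately, and each value is relative to the median gene of its own culture. Pearson's r between the mean SC value and the YPA value at 2 h was 0.68 over 5052 genes. Of the steadily high genes, 168 of the 175 found there were above the median gene, with a median of 1.11, and of the steadily low genes 3 of 172 were, with a median of -2.03. Lists did not shift alike. Cytosolic ribosomal proteins had 0.99 in SC and 1.02 in YPA, and respiratory chain genes 1.35 and 1.32. Ribosome biogenesis genes had 0.72 in SC and -0.19 in YPA, and SNAREs 1.55 and 0.91. The protein secretion and glycosylation list had -0.18 in SC and 0.28 in YPA. Cell wall genes had -2.20 in SC and 0.32 in YPA, ion transport -2.52 and -0.47, transporters -2.50 and -1.11, ergosterol and fatty acid synthesis -0.96 and 0.33, and the citric acid cycle -0.11 and 1.02. PMA1 stood at -2.77 in SC and 0.12 in YPA, KAR2 at -3.24 and -0.48, and CCW12 at -1.24 and 1.27, while GCN4 (-5.08 and -4.39), PRM7 (-6.34 and -6.34) and CLN3 (-2.63 and -1.83) were far below the median gene in both. The medium and anything else that differed between the 2 sets of libraries cannot be told apart in these values.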

How the data were processed

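The authors deposited gene tables of RPKM for footprint and mRNA libraries and, for SC, TE ratios. Per the labels' protocols, cells were lysed with glass beads, footprints were made with RNase, total RNA was treated with Ribo-Zero and fragmented, and fragments of 26-40 nt were sequenced. The submitters' processing notes name TopHat, DESeq and sacCer3 without their roles; for strand use, versions and read filters the sources used here say nothing. The deposited TE ratio equals footprint RPKM over mRNA RPKM in all 18568 values compared.

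Here 1 RPKM was added to both levels, the log2 ratio was centred on each culture's median gene, and genes with mean wild-type mRNA of at least 10 RPKM were kept. limma 3.58.1 (R 4.3.3) fitted 1 mean per time, and treat tested the mean of both times against 1.5-fold, with Benjamini-Hochberg adjustment over 5396 genes at 0.05. Simulated data with known shifts were used to test the fit. Their noise was independent between cultures, so they do not cover the correlation of cultures within a replicate number. Steady sets and gene lists carry no test. Library totals were inferred from the smallest steps of the RPKM values, of which 79.7% to 85.1% came out whole within 0.05 read. Names and lengths are from RefSeq R64, which matched 5283 of the 5396 genes. A further 10 value columns that match no sample used here were left out. Members and lists were chosen with earlier results of these data known.

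Genes named are the 12 highest and 12 lowest steady, called genes with a gene name, the 12 most abundant mRNAs, up to 2 high and 2 low members per list, a fixed set (GCN4, HAC1, CLN3, PCL5, CPA1, YAP1, TIF4631, TIF4632, PAB1, CDC33, PMA1, UBR1, GAL1, HSP104), and the 12 lowest nuclear genes, which were added later. Alternatives were other added constants, filters, scalings, fold limits and fits, and leaving out each culture.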

Additional observations from a re-analysis of the deposited data

Results flagged for a closer look

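In 14 of the 203 results checked (genes named and list medians, 4 wild-type cultures each), 1 culture lay far from the other 3 for its group's spread; chance alone marks about 1 in 20 such groups. Values are log2 TE relative to the median gene. In the 2 h replicate 1 culture, the histone gene HHF1 was at 1.55 (others 1.85 to 1.89), the lipase gene ATG15 at -3.76 (others -3.98 to -3.95), the unnamed gene YMR103C at -4.77 (others -6.09 to -6.04), the median of purine and pyrimidine synthesis genes at -0.0532 (others 0.10 to 0.12) and the median of cell cycle regulators at 0.0057 (others -0.12 to -0.10). In the 2 h replicate 2 culture, the ribosome biogenesis gene FCF2 was at 3.46 (others 2.45 to 2.47), and CUP1-1 and CUP1-2, which share their values, at 2.88 (others 2.55 to 2.60). In the 8 h replicate 1 culture, the kinase gene BCK1 was at -1.80 (others -1.85 to -1.84), the unnamed gene YLR361C-A at 2.36 (others 3.0 to 3.02), the transporter median at -2.73 (others -2.45 to -2.42) and the ion transport median at -2.59 (others -2.37 to -2.34). In the 8 h replicate 2 culture, the kinetochore gene HSK3 was at 3.02 (others 3.48 to 3.57) and the sensor gene WSC3 at -3.99 (others -4.51 to -4.43). FCF2 and YMR103C stood out by about 1 log2 unit; in the other 12 results the gap was smaller.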

How the results depend on the processing

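The counts of 1399 high and 1505 low genes stayed within 1.5 times under 18 of the 21 alternatives run, and no gene called high became low or the reverse in any of them except 1 low gene called high with the length trend removed. Tested against 0, 2286 genes were high and 2258 low; tested against 2-fold, 793 were high; with at least 50 RPKM of mRNA, 571 were high and 665 low of 2206 tested. Leaving out 1 culture gave 1246 to 1324 high and 1437 to 1498 low genes. Without centring, the median gene stood at 0.158 and 1670 genes were high and 1334 low. The steady sets of 180 and 199 genes became 406 and 408 with tails of 10%, 71 and 61 with tails of 2%, and 72 and 81 with at least 50 RPKM of mRNA. Leaving out 1 culture changed neither set by over 1.5 times. With the length trend removed, DDR2 (-0.79), PMP3 (-0.33), PMP2 (-0.63), MFA1 (-0.43) and TRA1 (0.28) changed sign and none was called; these genes are 111 to 186 nt long, or 11235 nt for TRA1. Named genes near the threshold lost their call most often: the elongation factor gene YEF3 (-1.0, adjusted p = 0.048) did so in 7 alternatives that kept its values unadjusted for length and tested against 1.5-fold, including those without the 2 h or 8 h replicate 2 culture (-0.81 and -0.84). What a replicate number stands for is not stated; deviations of the 2 times within a number correlated at 0.61, and with the replicate block 1516 genes were high and 1619 low, with HAC1 (adjusted p = 0.0031), TIF4632 (0.014) and UBR1 (0.022) added to the calls. With 2 h and 8 h averaged within a replicate number instead, 1258 genes were high and 1419 low, and HAC1 (adjusted p = 0.30), TIF4632 (0.25) and UBR1 (0.23) were not called. At these depths, genes with footprints under about 1 RPKM have no exact TE, only a bound set by the added constant.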
